A study of Homo sapiens with 8 samples.

Results

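FAM50B, PLAGL1 and IGF2R are imprinted genes on human chromosome 6. The 3 regions described here are intervals at or in them that were taken in advance to carry imprinted methylation. Each interval was defined by fixed hg19 coordinates, and its members were the CpGs listed in any of 8 methylation files. The FAM50B interval (chr6:3849082-3850359) held 13 listed CpGs, the PLAGL1 interval (chr6:144328078-144329888) held 73, and the interval in intron 2 of IGF2R (chr6:160426558-160427561) held 14. That made 100 CpGs of 2862601 autosomal CpGs listed in the series, with 57 further CpGs within 5 kb outside the intervals serving as flanks. The flanks were uneven: FAM50B had 7 CpGs upstream and 26 downstream, PLAGL1 had 3 downstream only, and IGF2R had 21 upstream only (upstream meaning the lower coordinate).

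The libraries were reduced representation bisulfite sequencing (RRBS) of genomic DNA from HUES64, an established human embryonic stem cell line, with DNMT3A and DNMT3B both knocked out. RRBS cuts DNA at CCGG with MspI, keeps short fragments and reads unconverted cytosines as methylated. Cells were sampled at passages 6, 7, 8, 11, 13, 17, 27 and 28, with 1 library per passage, so no passage had a replicate. Every library carried the same knockout genotype, and cells with intact DNMT3A and DNMT3B were not analysed here. The labels do not say from which event passages were counted, nor whether the libraries came from a single continuous culture, and a serial culture would not give independent replicates. Total reads over CpGs per library ran between 19898423 at passage 11 and 44599588 at passage 6, with median reads per listed CpG of 6 to 13.

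An imprinted gene is expressed mainly from the copy inherited from a single parent, and the parental copies are told apart by DNA methylation laid down in the germ line. The imprints at all 3 genes are known as maternally methylated. DNMT3A and DNMT3B add new methylation, DNMT1 copies existing methylation after each replication, and at imprints the zinc finger protein ZFP57 binds a methylated TGCCGC hexamer and brings TRIM28 to hold the mark. FAM50B is a paternally expressed retrogene. PLAGL1 encodes a zinc finger transcription factor that restrains proliferation, is paternally expressed, and shares its imprinted promoter with the noncoding transcript HYMAI. IGF2R encodes the receptor that clears IGF2 and sorts lysosomal enzymes, and its intron 2 region holds the start of the antisense transcript AIRN.

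The promoters tied to the FAM50B and PLAGL1 imprints are shown for their CpG content. Whether the CpGs measured here lie in these windows was not tested. The windows are RefSeq sequences of GRCh38.p14, 5′ to 3′, lower case with each CpG in capitals, and their coordinates must not be laid on the hg19 positions of the methylation files. The FAM50B promoter is chr6:3849123-3849422 on the plus strand, and the PLAGL1 promoter that is also that of HYMAI is chr6:144008210-144008509 on the minus strand.
FAM50B: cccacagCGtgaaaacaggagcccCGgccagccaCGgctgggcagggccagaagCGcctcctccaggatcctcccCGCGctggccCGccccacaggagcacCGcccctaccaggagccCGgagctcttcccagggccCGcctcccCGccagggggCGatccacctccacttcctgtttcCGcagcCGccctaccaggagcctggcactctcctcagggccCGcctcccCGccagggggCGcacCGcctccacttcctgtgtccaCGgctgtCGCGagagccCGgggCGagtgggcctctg
PLAGL1/HYMAI: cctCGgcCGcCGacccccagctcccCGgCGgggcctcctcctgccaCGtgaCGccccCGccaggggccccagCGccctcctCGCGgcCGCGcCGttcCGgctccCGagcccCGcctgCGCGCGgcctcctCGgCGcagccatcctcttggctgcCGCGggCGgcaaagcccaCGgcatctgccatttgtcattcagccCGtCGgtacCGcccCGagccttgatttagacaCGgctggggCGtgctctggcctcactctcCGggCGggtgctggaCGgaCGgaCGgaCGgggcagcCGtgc
The FAM50B window held 23 CpGs and the PLAGL1/HYMAI window 39, where the median of 34943 RefSeq promoter windows of 300 bases was 14. The hexamer TGCCGC, searched on both strands, was present 2 times in the PLAGL1/HYMAI window, and no match lay in the FAM50B window. It was present in 16.7% of all promoter windows. The MspI site CCGG occurred 3 times in each, and 63.1% of all promoter windows held it. CCGG and TGCCGC were counted separately, with no overlap removed.

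The 3 regions had very different levels. Here a level is the share of methylated reads among all reads summed over the listed CpGs of an interval, each with a 95% Wilson interval that covers counting error only and is too narrow where a read spans several CpGs. A read that spans several CpGs is counted at each, so the reads given for a set of CpGs can exceed the reads sequenced. At passages 6 to 8, pooled, 61 of the 73 PLAGL1 CpGs lay between 20% and 80%, the intermediate range a mark on a single parental copy gives. None of the 13 FAM50B CpGs did: 10 were under 20% and 3 above 80%. All 14 IGF2R CpGs were above 80%. The early data therefore carried an intermediate level at PLAGL1, and at FAM50B and IGF2R they did not. The labels give no parental origin for any read.

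**Figure D1:**
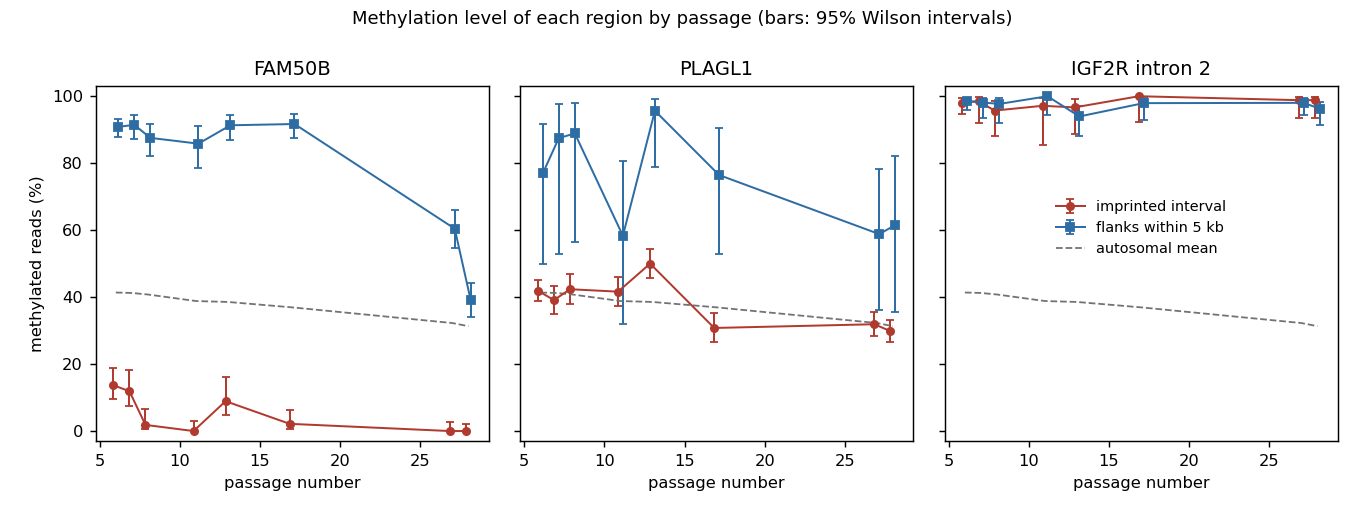
Methylated reads (percent, y) against passage number (x) for each imprinted interval (red circles), its flanks within 5 kb (blue squares) and the mean of 203892 autosomal CpGs (grey dashes), with 95% Wilson intervals as bars. FAM50B stays at or under 13.7% while its flanks drop to 60.4% at passage 27 and 39.0% at passage 28, PLAGL1 sits between 29.8% and 50%, and IGF2R stays at or above 95.7%.

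FAM50B is described first. Its interval stood at 13.7%, 11.9%, 1.83%, 0%, 8.91%, 2.16%, 0% and 0% at passages 6, 7, 8, 11, 13, 17, 27 and 28, from 101 to 212 reads a library. The 0 at passage 27 (135 reads) allows a level of up to 2.22%, and the 0 at passage 28 (171 reads) up to 1.75%. The values at passages 27 and 28 were lower than those of 5 of the other 6 libraries and level with passage 11. The intervals at passage 8 (0.505% to 6.44%) and passage 17 (0.737% to 6.15%) reach under both limits, so passages 8 and 17 are not shown to be higher. The mix of CpGs read differed by library, which also enters these levels and their slope (see the core and edge below). The slope was -0.43 ± 0.20 (SE) percentage points per passage, with Pearson's r of -0.66 (two-sided exact permutation p = 0.0807) and Spearman's rho of -0.73 (exact permutation p = 0.0509). Without passages 27 and 28 r was -0.53 (exact permutation p = 0.254). The slope was -0.032 (exact permutation p = 0.357) over the 10 CpGs listed in all files. It was -0.12 (exact permutation p = 0.375) with equal weight for the 2 CpGs that reached 10 reads in each file. Both settings leave out the last listed CpGs of the interval. The slope over every listed CpG passed the threshold on the logit scale (-0.14 logit units per passage, exact permutation p = 0.0425) and with the interval widened by 500 bases (-1.48, exact permutation p = 0.0222).

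The interval held a core and an edge that behaved differently. The core was the 10 CpGs listed in all 8 files, at chr6:3849381-3849639, and was nearly free of methylation at every passage. It carried 0 methylated of 232 reads at passages 27 and 28, which allows up to 1.29%, 0 of 346 at passages 11 to 17, and 3 of 417 (0.719%, interval 0.245% to 2.09%) at passages 6 to 8. Of these 10 CpGs, 8 had no methylated read in any library. The CpG at position 3849475 had 0 methylated of 21 reads at passage 27 and 0 of 17 at passage 28, against 1 of 30 at passage 6, 0 of 20 at passage 7 and 1 of 21 at passage 8. The CpG at 3849630 had 1 methylated read in all, of 10 reads at passage 8. These were the FAM50B CpGs that reached 10 reads in each file, and neither held the 10 methylated reads a test needed.

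The edge was the 3 CpGs at chr6:3850271-3850298, the last listed ones inside the interval. It was singled out after its values were seen, and it gets no test. At passages 27 and 28 it had 0 methylated of 74 reads, at passages 6 to 8 it had 45 of 47 (95.7%), and at passages 11 to 17 it had 12 of 21 (57.1%). By library it was 93.3% at passage 6 (30 reads) and 100% at passage 7 (17 reads), without a read at passage 8, 0% at passage 11 (9 reads), 100% at passages 13 (9 reads) and 17 (3 reads), and 0% at passages 27 (15 reads) and 28 (59 reads). The early methylation of the whole interval came almost wholly from these CpGs, since passages 6 to 8 had 45 methylated reads there and 3 in the core. The low value of the interval at passage 8 stands beside the lack of edge reads in that library. At passage 17 only 3 of the interval's 139 reads were edge reads, all methylated. At passage 28 they were 59 of 171, none methylated. The level of the interval and its slope therefore depend in part on how many reads each library had at the edge.

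Past the edge, methylation in the downstream flank was lower at the late passages. The 16 CpGs at chr6:3850438-3850554, which begin 79 bases outside the interval, stood at 94.7%, 92.5%, 95.7%, 94.1%, 97.8%, 95.2%, 52.8% and 20.3% over the 8 passages in order, from 51 to 245 reads a library. The 7 CpGs at chr6:3850624-3850656, 265 bases out, stood at 98.2%, 100%, 91.5%, 92%, 83.3%, 98.02%, 60.3% and 33.3%, from 18 to 101 reads. The 3 CpGs at chr6:3850727-3850736, 368 bases out, had 28 of 30 reads methylated (93.3%) at passages 27 and 28, and 121 of 125 (96.8%) at passages 6 to 17. In both of the nearer groups, passage 28 was lower than passage 27, and both were lower than all 6 libraries of passages 6 to 17. The pooled late level thus went up with distance from the core, with 0% at the edge, and 35.3% (interval 29.9% to 41.1%) and 44.3% (interval 37.0% to 51.9%) in the next groups. It was 93.3% (interval 78.7% to 98.2%) in the farthest, where each of the 3 CpGs had 10 reads at passages 27 and 28. These levels describe groups formed after the values were seen. The upstream flank, over 4 kb away, had 66.1% of 165 reads methylated at passages 27 and 28 and 75.2% of 210 reads at passages 6 to 8.

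**Figure D2:**
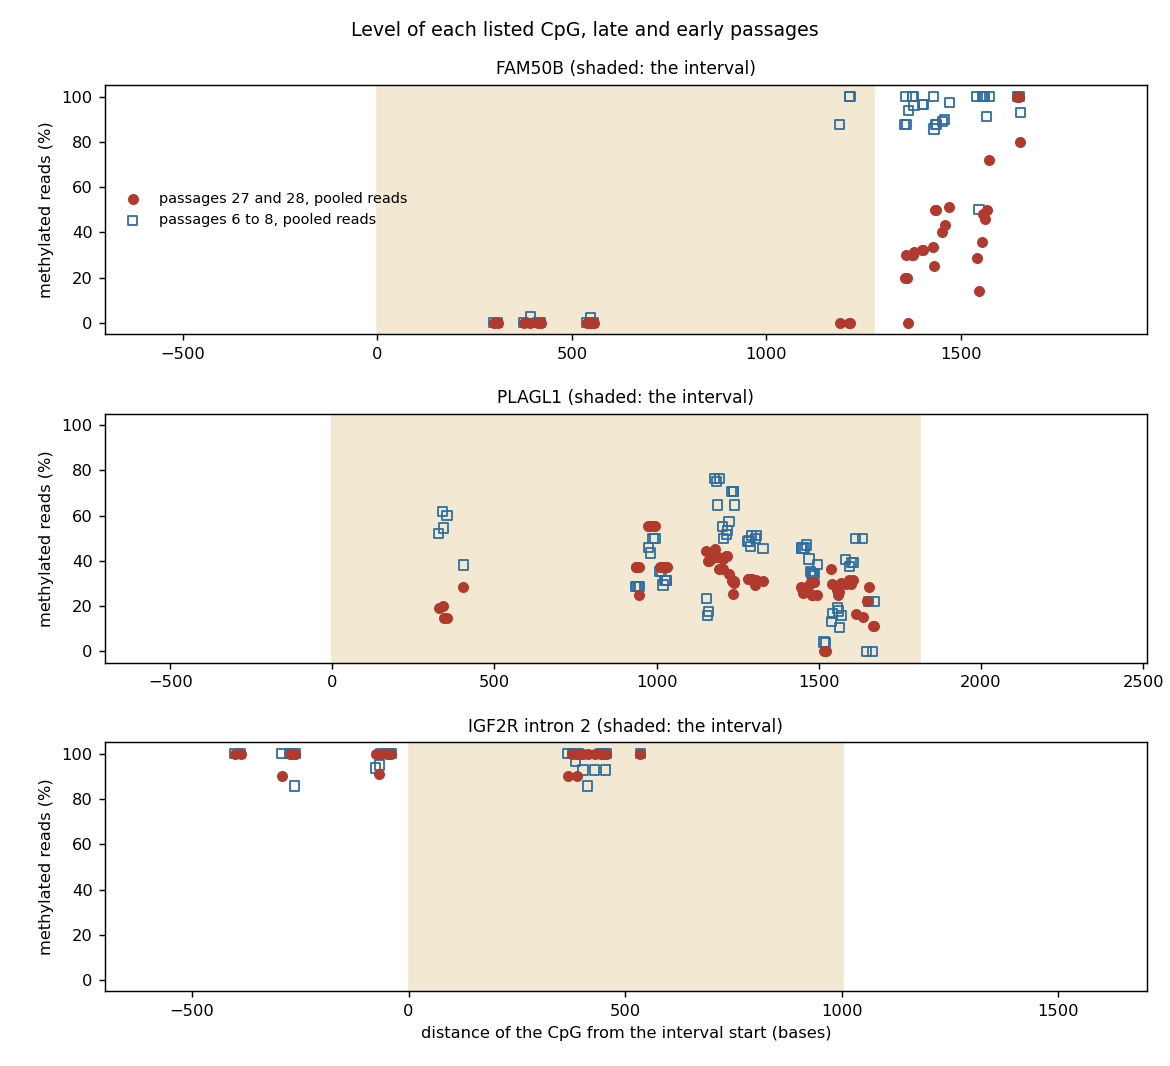
Methylated reads (percent, y) at each listed CpG in or close to the interval against its distance in bases from the interval start (x), with reads pooled over passages 27 and 28 (red circles) and over passages 6 to 8 (blue squares), and the interval shaded. At FAM50B the late points stay at 0% to the end of the interval and climb across the downstream flank, at PLAGL1 most late points lie under the early ones, and at IGF2R every plotted point is at or above 85.7%.

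The FAM50B flanks as a whole stood at 60.4% and 39.0% at passages 27 and 28, against 85.8% to 91.7% at passages 6 to 17. The autosomal mean was also lower late, at 32.3% and 31.3% against 36.9% to 41.4% at passages 6 to 17. The share of tiles whose late libraries lay under all earlier ones was not counted. The slope of the FAM50B flanks was -1.95 ± 0.45 points per passage (r = -0.87, exact permutation p = 0.0164), with a rho of -0.45 (exact permutation p = 0.267). It rested on the last passages: without passages 27 and 28 the slope was 0.11 (exact permutation p = 0.728). Over all 8 libraries, on the percent scale, the difference in slope was 1.52 ± 0.51 points per passage (interval minus flanks, exact permutation p = 0.0330). That direction depended on the setting. It turned with passages 6 to 17 alone (-0.85, exact permutation p = 0.0625), on the logit scale (-0.039 logit units per passage, exact permutation p = 0.434), with the interval widened by 500 bases into the downstream flank (-1.14, exact permutation p = 0.0220) and with the upstream flank alone (-0.088, exact permutation p = 0.669). The call was lost on log2 passage (exact permutation p = 0.0680), without passage 27 (1.68, exact permutation p = 0.139) and without passage 28 (0.78, exact permutation p = 0.162). The slope of the flanks themselves also missed the threshold without passage 27 (-2.14) and without passage 28 (-1.26), with an exact permutation p of 0.0883 for each, and with the upstream flank alone (-0.35, exact permutation p = 0.128). In a comparison added after the data were seen, the slope of the downstream minus the upstream flank was -2.15 ± 0.55 points per passage (exact permutation p = 0.0246). It was -2.29 without passage 27 and -1.41 without passage 28, with an exact permutation p of 0.106 for each, and 0.38 with passages 6 to 17 alone (exact permutation p = 0.518).

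**Figure D3:**
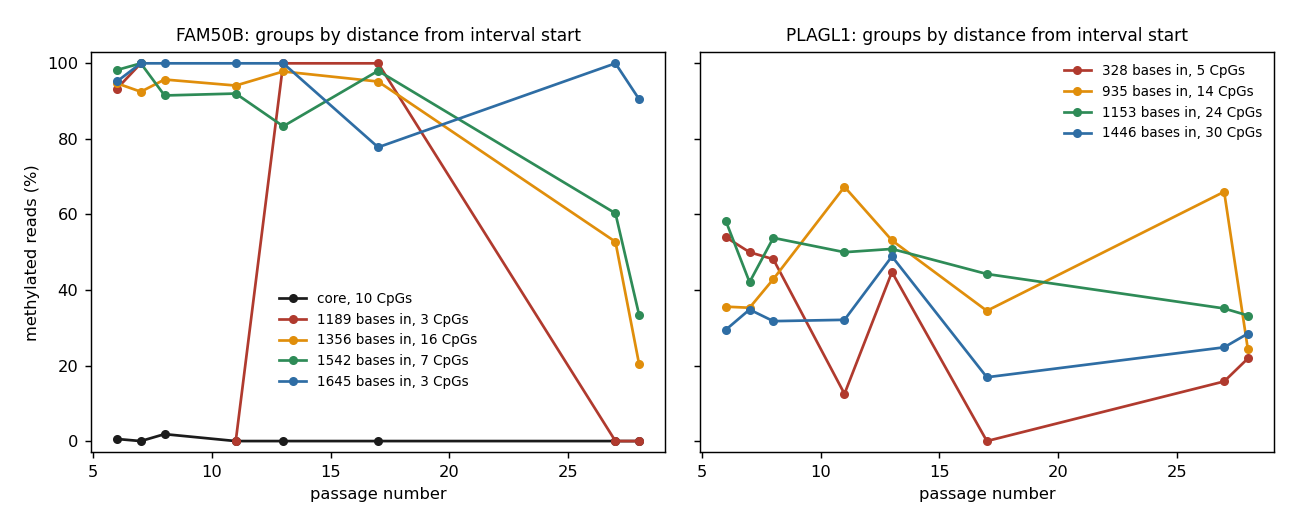
Methylated reads (percent, y) by passage (x) for groups of neighbouring CpGs at FAM50B (left) and PLAGL1 (right), each named by the distance of its first CpG from the interval start and its number of CpGs. At FAM50B the core stays near 0%, and the edge group reaches 0% at passages 11, 27 and 28 and has no point at passage 8. The next groups, of 16 and 7 CpGs, drop at passages 27 and 28. The farthest group stands at 100% at passage 27 and 90.5% at passage 28. At PLAGL1 the groups cross each other and no group follows passage in every library.

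PLAGL1 kept an intermediate level at every passage. Its interval stood at 41.9%, 39.1%, 42.4%, 41.6%, 50%, 30.8%, 31.9% and 29.8% at passages 6, 7, 8, 11, 13, 17, 27 and 28, from 445 to 919 reads a library. Passages 17, 27 and 28 were the 3 lowest, and passage 13 the highest. Passages 27 and 28 averaged 30.9% and passages 6 to 8 averaged 41.1 ± 1.75% (SD over the 3 libraries). The slope was -0.58 ± 0.23 points per passage, with r of -0.71 (exact permutation p = 0.0542) and rho of -0.62 (exact permutation p = 0.115). Without passages 27 and 28 r was -0.34 (exact permutation p = 0.517). The trend did not pass the threshold of 0.05 with every listed CpG. It did with the 67 CpGs listed in all files (slope -0.61, exact permutation p = 0.0393), on the logit scale (-0.025 logit units per passage, exact permutation p = 0.0474), and without passage 13 (slope -0.54, exact permutation p = 0.0149). It also did over the 3 CpGs that reached 10 reads in each file (slope -0.85, exact permutation p = 0.0111). Equal weights were applied to those same 3 CpGs only (slope -0.87, exact permutation p = 0.0048), so that value is no separate support. With each library left out in turn, the exact permutation p of the slope over every listed CpG ran from 0.0149 to 0.166.

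Within PLAGL1, 48 of the 73 CpGs were lower at passages 27 and 28 than at passages 6 to 8, and 25 were higher, with a median difference of -9.42 points. Neighbouring CpGs often share reads, so these CpGs are not independent. The share of all autosomal CpGs that were lower late was not counted. Pooled CpG levels ran from 0% to 55.6% at passages 27 and 28 and from 0% to 76.5% at passages 6 to 8. At passages 27 and 28, 63 of the 73 lay between 20% and 80%, against 61 at passages 6 to 8. The 24 CpGs at chr6:144329231-144329407 had 34.1% of 643 reads methylated at passages 27 and 28 and 51.7% of 731 reads at passages 6 to 8. The pooled intervals were 30.5% to 37.8% late and 48.1% to 55.3% early, and they leave out the spread between libraries. By library this group stood at 35.1% and 33.2% at passages 27 and 28, against 58.3%, 42.1% and 53.8% at passages 6, 7 and 8. The intervals of passage 7 (36.1% to 48.2%) and passage 27 (29.8% to 40.8%) overlapped. The 5 CpGs at chr6:144328406-144328483 had 19.6% of 102 reads methylated late and 51.6% of 122 reads early. Lower values were present before the late passages too: passage 11 stood at 12.5% (56 reads), passage 13 at 44.7% (38 reads) and passage 17 at 0% (31 reads).

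The other groups of PLAGL1 moved less or not in order. The 30 CpGs at chr6:144329524-144329750 had 26.6% of 549 reads methylated late and 31.4% of 844 reads early, with overlapping intervals. The 14 CpGs at chr6:144329013-144329110 had 42.2% of 116 reads late and 38.3% of 222 reads early. In that group, passage 27 stood at 66.0% (50 reads) and passage 28 at 24.2% (66 reads), next to each other in passage and far apart in level, with 3.57 and 4.71 reads per CpG. The PLAGL1 groups were formed after the values were seen and get no test.

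The 3 PLAGL1 CpGs that reached 10 reads in each of the 8 files gave the closest view of single sites. The CpG at 144329301 had 11 methylated of 31 reads at passage 27 and 12 of 36 at passage 28, against 15 of 21, 7 of 14 and 5 of 12 at passages 6, 7 and 8. The CpG at 144329386 had 11 of 24 and 7 of 33 at passages 27 and 28, against 23 of 42, 13 of 32 and 10 of 16 at passages 6, 7 and 8. The CpG at 144329548 had 7 of 26 and 5 of 15 at passages 27 and 28, against 11 of 34, 8 of 17 and 8 of 15 at passages 6, 7 and 8. All 3 were lower late when reads were pooled, at 34.3%, 31.6% and 29.3%, against 57.4%, 51.1% and 40.9% at passages 6 to 8. A quasi-binomial fit was set up for the 203892 autosomal CpGs that reached 10 reads in each file. Only 90260 of them could be tested, since a test also needed 10 reads in either state. CpGs that were almost always or almost never methylated were thus left out of the share called. Of the 90260 tested, 33903 (37.6%) were called as losing methylation, and none of the 3 PLAGL1 CpGs was. Their fitted changes between passages 6 and 28 were -24.9, -20.2 and -12.05 points, with Benjamini-Hochberg adjusted p of 0.0748, 0.175 and 0.491 in that fit. At 144329386 the change was -1.19 points without passage 28, and at 144329548 it was -21.4 points without passage 6 and -7.45 points without passage 27. With each library left out in turn, the change at 144329301 lay between -27.7 and -17.3 points.

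The flanks of PLAGL1 rested on 8 to 23 reads a library at 3 CpGs that began 3554 bases downstream, and stood at 58.8% and 61.5% at passages 27 and 28, against 76.9%, 87.5% and 88.9% at passages 6, 7 and 8. The slope of the interval minus its flanks was 0.47 ± 0.50 points per passage (exact permutation p = 0.371), so no difference was detectable at this depth. Relative to the autosomal mean, which stood at 32.3% and 31.3% at passages 27 and 28 against 40.8% to 41.4% at passages 6 to 8, the PLAGL1 slope was -0.13 ± 0.23 (exact permutation p = 0.615). PLAGL1 levels lay between 6.15 points under and 11.4 points over that mean in all 8 libraries.

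IGF2R intron 2 stayed almost fully methylated. Its interval stood at 98.1%, 98.5%, 95.7%, 97.1%, 96.7%, 100%, 98.8% and 98.8% at passages 6, 7, 8, 11, 13, 17, 27 and 28, from 35 to 159 reads a library. No library was under 95.7%, and the late libraries lay inside the range of the others. The slope was 0.08 ± 0.06 points per passage, with r of 0.49 (exact permutation p = 0.218) and rho of 0.54 (exact permutation p = 0.175). Without passages 27 and 28 r was 0.39 (exact permutation p = 0.442). In all, 597 of 609 reads were methylated, and 5 of the 14 CpGs had no unmethylated read in any library. All 14 lay in a stretch of 169 bases, chr6:160426926-160427094, so most of the interval was not sampled, and whether that stretch lies within the segment that carries the imprint was not tested.

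The upstream flank of IGF2R was as high, at 98.03% and 96.2% at passages 27 and 28, against 98.6%, 98.1% and 97.7% at passages 6, 7 and 8. The slope of the interval minus the flanks was 0.13 ± 0.08 points per passage (exact permutation p = 0.157). Against the autosomal mean the IGF2R slope was higher by 0.53 ± 0.06 points per passage (r of 0.97 with an exact permutation p of 0.00062, and rho of 0.90 with an exact permutation p of 0.00456), and without passages 27 and 28 r was 0.86 (exact permutation p = 0.0208). The call was lost on the logit scale (0.051 logit units per passage, exact permutation p = 0.0679), and the slope was 0.81 over the single CpG with 5 reads in each file (exact permutation p = 0.0294). The excess over that mean was 66.6 and 67.5 points at passages 27 and 28, against 56.7, 57.3 and 54.9 points at passages 6, 7 and 8. Of that 0.53 points per passage, IGF2R's own slope made up 0.08.

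Set against each other, the slopes of the regions were told apart in a single pair of 3. FAM50B minus IGF2R was -0.51 ± 0.19 points per passage (exact permutation p = 0.0374), PLAGL1 minus IGF2R was -0.65 ± 0.28 (exact permutation p = 0.0625) and FAM50B minus PLAGL1 was 0.14 ± 0.29 (exact permutation p = 0.608). The FAM50B minus IGF2R call was lost without passage 6, 7, 17, 27 or 28 (exact permutation p of 0.0885, 0.0786, 0.0548, 0.0589 and 0.0601), and PLAGL1 minus IGF2R passed without passage 13 (slope -0.61, exact permutation p = 0.0286). The FAM50B minus IGF2R call also rested on the edge CpGs: with the CpGs listed in all files the difference was -0.11 (exact permutation p = 0.200). With those CpGs FAM50B minus PLAGL1 was 0.58 (exact permutation p = 0.0475) and PLAGL1 minus IGF2R was -0.69 (exact permutation p = 0.0490). Likewise FAM50B minus the autosomal mean had a slope of 0.02 ± 0.20 (exact permutation p = 0.936) over every listed CpG, and 0.42 (exact permutation p = 7.4e-05) over the core. The core stood near 0% from the first library, so it had almost no room to fall. In all, 16 slopes were tested in this way, their p-values are not adjusted, and the smallest p that 40320 orders of the 8 libraries can give is 2.5e-05.

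The same question was put to autosomal features in a quasi-binomial fit of tiles of 1000 bases, the 3 intervals and their flanks. A feature was tested when it had at least 10 methylated and 10 unmethylated reads over all libraries. A feature was called when its Benjamini-Hochberg adjusted p over all features was under 0.05 and its fitted change between passages 6 and 28 was at least 10 points. With CpGs that reached 10 reads in each file, 11744 of 22627 features could be tested. Of those tested, 47.6% were called as losing methylation. PLAGL1 alone of the 3 intervals could be fitted, with 3 CpGs, and it was called at -18.8 points (adjusted p = 0.0253 in that fit). The call was lost without passage 6 (adjusted p = 0.0513), passage 27 (adjusted p = 0.0543) or passage 28 (adjusted p = 0.221), with limma on logit levels (adjusted p = 0.0999) and with passages 6 to 17 alone (-3.59 points, adjusted p = 0.936). A fit added after the data were seen summed every listed CpG, and called 23.6% of 215323 tested features (of 248557) as losing methylation. In it PLAGL1 changed by -12.4 points (adjusted p = 0.00523) and FAM50B by -11.7 points (adjusted p = 0.00127), both called, and the IGF2R value was 1.34 points (adjusted p = 0.593), not called. The PLAGL1 call was lost without passage 28 (adjusted p = 0.0773), and the FAM50B change shrank to -9.43 points without passage 6. Both calls were lost with limma on logit levels (PLAGL1 adjusted p = 0.350; FAM50B at -6.82 points, adjusted p = 0.0438) and with passages 6 to 17 alone (adjusted p = 0.697 for PLAGL1 and 0.0841 for FAM50B). The FAM50B flanks changed by -43.9 points (adjusted p = 1.2e-06), and the value for the IGF2R flanks was -1.06 points (adjusted p = 0.705). Loss was common among the features tested, so a call of loss is not particular to these regions, and the FAM50B value includes the edge CpGs.

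Tiles that started at the same level give another scale. They were tiles of CpGs that reached 10 reads in each file and whose mean at passages 6 to 8 lay within 5 points of the region's, and they are a description without a test. The late mean minus the early mean was -10.3 points for PLAGL1, where 692 tiles of like start had a median change of -31.6 points (quartiles -37.9 and -16.3). PLAGL1, summed over every listed CpG, therefore lay above the upper quartile of those tiles, with a smaller difference. The 3 PLAGL1 CpGs that meet the tiles' read minimum had a larger fitted change, -18.8 points against -12.4 points over every listed CpG. Those 3 CpGs were not set against tiles of like start, so whether PLAGL1 keeps that place at the same read minimum was not tested. The difference was 1.37 points for IGF2R, where 1773 tiles had a median of -3.39 (quartiles -8.75 and -0.49). It was -9.13 points for the FAM50B interval, where 1242 tiles had a median of -5.47 (quartiles -8.66 and -2.76), and -0.79 points for its core, where 11946 tiles had a median of 0 (quartiles -0.25 and 0). For the downstream flank of FAM50B it was -50.9 points, where 2481 tiles had a median of -4.26 (quartiles -10.7 and -0.76). The regions were summed over every listed CpG, without the read minimum of the tiles, and so rest on fewer reads per CpG. The start of the FAM50B interval mixes a nearly unmethylated core with a highly methylated edge, which had no read at passage 8. Tiles of like start need not resemble that interval.

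**Figure D4:**
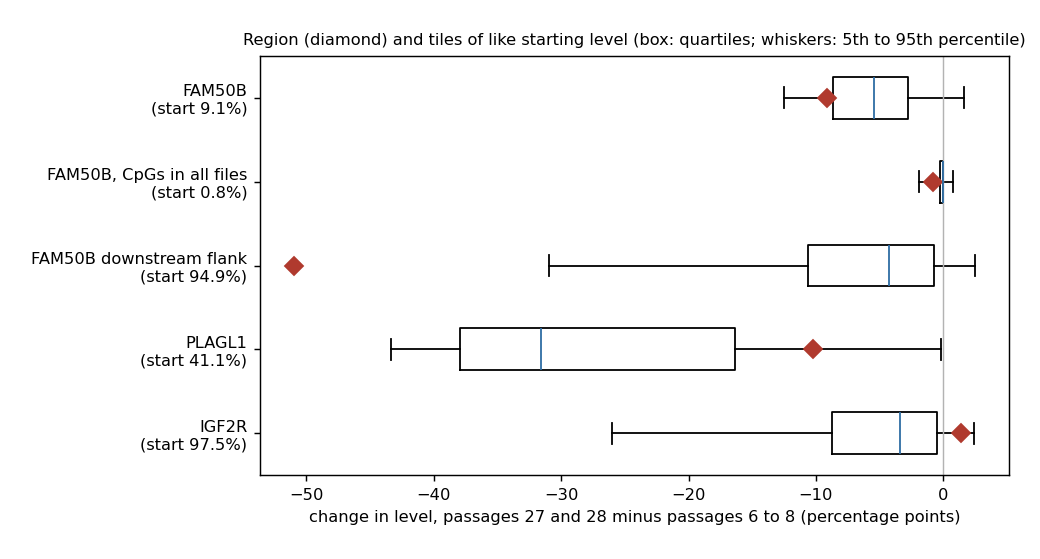
Change in level between the means of passages 27 and 28 and of passages 6 to 8 (percentage points, x) for each region (red diamond) and for autosomal tiles that started within 5 points of it (box at the quartiles, blue median, whiskers at the 5th and 95th percentiles). PLAGL1 lies right of its box at -10.3 points, IGF2R right of its box at 1.37, and the FAM50B downstream flank far left of its box at -50.9. Regions are summed over listed CpGs without the read minimum that the CpGs of the tiles had to meet.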

How the data were processed

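Each of the 8 files lists CpGs with, per the file contents, methylated and total read counts as a fraction (deposited by the authors as text) and a score that equals 1000 times the methylated share on every line and was not used. The authors placed reads on hg19, per the submitters' processing notes. The aligner, the methylation caller, filters on coverage and the treatment of duplicates were not given in the sources used here.

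Positions are printed 1-based. CpGs were matched by chromosome and position. Reads were summed over the listed CpGs of an interval or flank, per library, and slopes on passage were tested two-sided by exact permutation of the 8 passages among the libraries (40320 orders). Group levels carry 95% Wilson intervals; these and the limits that a count of 0 allows (3 counts of the total) cover counting error only. Tiles of 1000 bases with at least 3 CpGs, and single CpGs, were fitted by quasi-binomial regression on passage with dispersions moderated by limma 3.58.1 (R 4.3.3) and not under 1, at least 10 reads of each state, and Benjamini-Hochberg adjustment over all features. The planned tile fit needed CpGs that reached 10 reads in each file, which 2 of the 3 intervals lacked in number, so the fit over every listed CpG was added after the data were seen. The steps were tested on simulated data. Python 3.11.15 with numpy 2.4.6, scipy 1.17.1 and pandas 2.3.3 did the rest.

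The regions, and the lists and tests, were chosen with earlier results of these data known. Single CpGs were named by a rule: in each interval, among CpGs that reached 10 reads in each file, the first and last and the 2 with the largest and the 2 with the smallest fall. Groups join listed CpGs at most 50 bases apart. Alternatives covered read minimums of 5, 10 and 20, equal weights for CpGs at the minimum of 10, interval and flank widths, scales, passages 6 to 17 and each library left out.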

Additional observations from a re-analysis of the deposited data

How the results depend on the processing

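No paired analysis was possible because there was only 1 library at every passage. Slopes are in percentage points per passage, in logit units per passage or in points per doubling of passage where said, and fitted changes are in points between passages 6 and 28, extrapolated where only passages 6 to 17 entered.

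With each library left out in turn, the slope ran between -0.53 and -0.32 for FAM50B, -0.65 and -0.53 for PLAGL1, and 0.05 and 0.10 for IGF2R. It ran between 0.78 and 1.76 for FAM50B minus its flanks, -0.078 and 0.13 for FAM50B minus the autosomal mean, 0.29 and 0.65 for PLAGL1 minus its flanks, and 0.50 and 0.55 for IGF2R minus the autosomal mean. Between regions it ran between -0.58 and -0.42 for FAM50B minus IGF2R, -0.75 and -0.61 for PLAGL1 minus IGF2R, and 0.05 and 0.29 for FAM50B minus PLAGL1, and for the FAM50B downstream minus upstream flank between -2.39 and -1.41. Fitted changes ran between -21.0 and -14.0 for PLAGL1 at 10 reads in every library, -13.5 and -11.1 for PLAGL1 over every listed CpG, and -13.3 and -9.43 for FAM50B. IGF2R reached the 10 unmethylated reads the fit needs in 6 of the 8 cases.

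With passages 6 to 17 alone, FAM50B minus its flanks was -0.85, FAM50B minus the autosomal mean -0.32, FAM50B minus PLAGL1 -0.24, FAM50B minus IGF2R -0.89, PLAGL1 minus its flanks -0.18, the downstream minus upstream flank 0.38 and the FAM50B flanks 0.11. The fitted changes were then -3.59 for PLAGL1 at 10 reads, -8.45 for PLAGL1 and -11.2 for FAM50B over every listed CpG, 1.50 for the FAM50B flanks and 22.9 for the CpG at 144329386. On the logit scale the slope was -0.14 for FAM50B, -0.039 for FAM50B minus its flanks, -0.12 for FAM50B minus the autosomal mean, -0.12 for FAM50B minus PLAGL1, -0.025 for PLAGL1 and 0.051 for IGF2R minus the autosomal mean. Per doubling of passage, FAM50B minus its flanks was 13.1 and FAM50B minus the autosomal mean -0.31. Widening the interval by 500 bases took in the downstream flank of FAM50B and gave -1.48 for FAM50B, -1.14 minus its flanks, -1.03 minus the autosomal mean and -0.91 minus PLAGL1. With the upstream flank alone FAM50B minus its flanks was -0.088.

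Over CpGs listed in all files the slope was 0.42 for FAM50B minus the autosomal mean, 0.58 for FAM50B minus PLAGL1, -0.11 for FAM50B minus IGF2R, -0.69 for PLAGL1 minus IGF2R and -0.61 for PLAGL1. Narrowing by 100 bases removed the FAM50B edge and gave 0.42 minus the autosomal mean and -0.11 minus IGF2R. At 5 reads in every library it was 0.38 for FAM50B minus the autosomal mean, -0.43 for FAM50B minus IGF2R, -0.98 for PLAGL1 minus IGF2R and -1.89 for the downstream minus upstream flank. At 10 reads it was 0.34 for FAM50B minus the autosomal mean, 0.73 for FAM50B minus PLAGL1 and -0.85 for PLAGL1, and 0.022 for the IGF2R flanks, which were also at 0.022 with equal weights. With equal weights, applied only to those CpGs at 10 reads, it was 0.33 for FAM50B minus the autosomal mean, 0.75 for FAM50B minus PLAGL1 and -0.87 for PLAGL1. With limma on logit levels the changes were -18.7 for PLAGL1 at 10 reads, -12.8 for PLAGL1 and -6.82 for FAM50B over every listed CpG, none called. A minimum change of 20 points ended the calls at -18.8, -12.4 and -11.7 points. Tiles within 10 points of the FAM50B start had a median change of 0. A minimum of 20 reads in each library left no value for any region. Apart from these, 213 alternatives of the comparisons kept their direction and side of the threshold. The cause of these differences was not tested, beyond what the CpGs removed or added by a setting show.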
